A study of Mus musculus with 6 samples.

Results

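The Wnt ligands, receptors and antagonists of the mouse ovary were followed across GalTKO and wildtype animals. The set held every protein-coding gene of GENCODE M21 named Wnt, Fzd, Sfrp, Dkk or Rspo with a number, together with Lgr4, Lgr5, Lgr6, Lrp5, Lrp6, Axin1, Axin2, Znrf3, Rnf43, Wif1, Frzb and Ctnnb1. These rules found 53 genes among the 55487 identifiers of the deposited count table. They go by name and use no measured value, but were chosen with earlier results of these data known. The 53 genes comprised 19 ligands, 12 receptors and co-receptors, 9 genes of the R-spondin arm, 10 secreted antagonists and 3 intracellular genes.

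RNA was sequenced from ovaries of 3 GalTKO samples (genotype GalT-/-) and 3 wildtype samples. All 6 samples carried the strain label cbl/6-ola/129, were taken at postnatal day 49 and came from animals that had eaten a diet with 2.5% galactose for 4 weeks, so a diet without galactose was not compared. Galt encodes the Leloir pathway enzyme galactose-1-phosphate uridylyltransferase, whose loss causes classic galactosemia in humans. The labels give neither the deletion in the Galt gene, nor litter, nor estrous stage, and do not say whether a sample is 1 animal or a pool, so the spread behind each p-value is that between these libraries. The comparison addresses which genes of the ovary differ without Galt under galactose feeding.

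Wnt proteins are secreted lipid-modified ligands that bind Frizzled receptors on neighbouring cells. With the co-receptors Lrp5 and Lrp6, a Frizzled bound by Wnt stops the Axin complex from marking beta-catenin for breakdown, and beta-catenin then joins TCF and LEF factors on DNA, while other Wnts act through Frizzled without beta-catenin. R-spondins, through their Lgr receptors, keep the ubiquitin ligases Znrf3 and Rnf43 from removing Frizzled, and Sfrp, Dkk, Wif1 and Frzb proteins block ligands or co-receptors outside the cell. In mice, Wnt4 and Rspo1 are needed for the gonad to become an ovary, and Wnt signals later act in granulosa and luteal cells.

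The libraries held between 19232486 and 25729564 counts. Galt had 10 counts in the GalTKO libraries together, against 1227 in the wildtype libraries. Markers of the ovary were present in every library: 8 granulosa genes summed to between 4157 and 5139 CPM (counts relative to the scaled library size) in GalTKO libraries and between 3891 and 4787 CPM in wildtype libraries, and 8 oocyte genes to between 258 and 299 CPM and between 221 and 339 CPM. Of 6 oviduct markers, Foxj1, Pax8, Pax2 and Dnah5 were under 1 CPM in every library, and Sox17 lay between 7.94 and 9.48 CPM in GalTKO and between 8.64 and 11.5 CPM in wildtype libraries. Ovgp1, the oviduct glycoprotein gene, stood at 20.3 CPM in wildtype replicate 2, against at most 0.7996 CPM in each of the 5 other libraries.

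Wnt4 and Fzd6 were the members that changed, and they moved in opposite directions: Wnt4 fell and Fzd6 rose in GalTKO ovaries. A gene was called changed when its Benjamini-Hochberg adjusted p in edgeR's quasi-likelihood test, over all tested genes, was under 0.05. Of the 53 members 39 had enough counts to be tested, of which 1 was higher, 1 was lower and 37 did not pass. The 2 calls were 5.13% of the tested members, against 2.55% of all 16957 tested genes (1.13% higher and 1.43% lower in GalTKO). The median log2 fold change, GalTKO over wildtype, was -0.07 over the tested members and 0.02 over all tested genes. Before adjustment, 8 of the 39 members (20.5%) and 17.1% of all tested genes had a p under 0.05. The GalTKO values lay all above or all below the wildtype values for 10 members (25.6%), with a background of 23.7%. The shares by unadjusted p and by separation were near the background, and the share called rests on 2 genes.

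**Figure D1:**
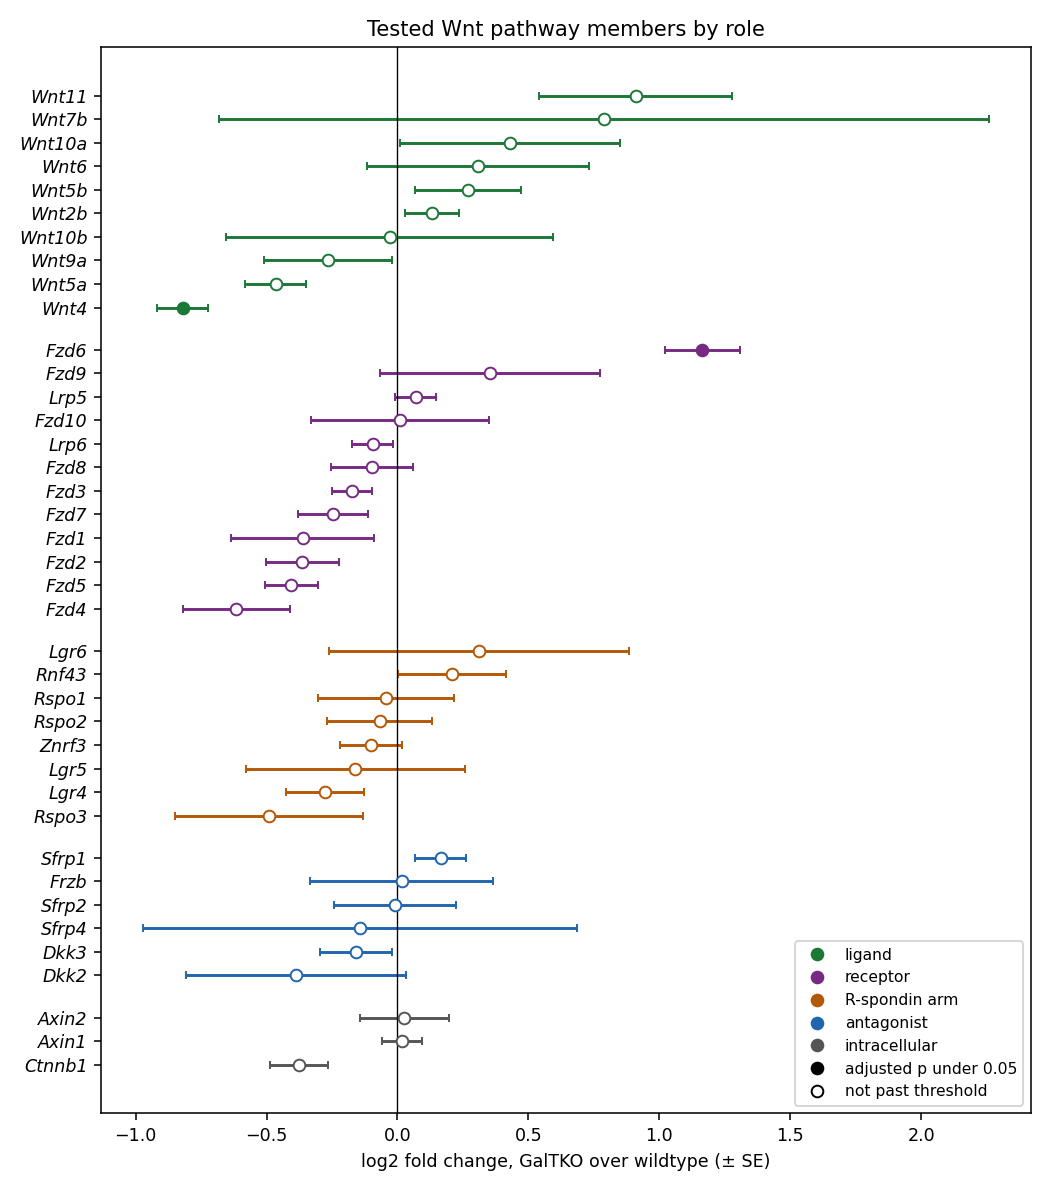
Log2 fold change of each tested member, GalTKO over wildtype, on the horizontal axis, with its standard error as a bar and members grouped and coloured by role. Filled points passed an adjusted p of 0.05: Wnt4 at -0.82 and Fzd6 at 1.164, while the other 37 points are open.

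Promoter sequence is shown for the 3 members with an unadjusted p under 0.05, a lower level in GalTKO ovaries and a single start in the RefSeq table: the called ligand Wnt4 and the receptors Fzd4 and Fzd5. The stretches come from RefSeq, build GRCm38.p6, cover up to 250 bases before the RefSeq start, and stop before the start annotated by GENCODE M21. They are printed 5′ to 3′ on the strand of the gene, at chr4:137277385-137277488 (plus strand) for Wnt4, chr7:89404116-89404354 (plus strand) for Fzd4 and chr1:64737752-64738000 (minus strand) for Fzd5.
Wnt4: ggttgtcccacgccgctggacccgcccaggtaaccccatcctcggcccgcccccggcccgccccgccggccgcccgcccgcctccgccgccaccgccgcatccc
Fzd4: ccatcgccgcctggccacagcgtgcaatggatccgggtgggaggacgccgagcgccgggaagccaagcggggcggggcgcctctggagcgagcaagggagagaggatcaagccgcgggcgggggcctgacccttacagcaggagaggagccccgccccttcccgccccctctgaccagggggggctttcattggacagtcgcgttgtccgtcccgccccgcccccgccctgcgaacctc
Fzd5: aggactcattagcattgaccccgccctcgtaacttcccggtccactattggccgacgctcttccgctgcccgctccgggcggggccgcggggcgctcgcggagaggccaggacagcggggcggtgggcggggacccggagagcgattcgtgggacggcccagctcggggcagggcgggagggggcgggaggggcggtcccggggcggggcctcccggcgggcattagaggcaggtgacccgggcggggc

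The letters CTTTGA, the core of the site that TCF and LEF factors bind, were searched on both strands of the 250 bases before each RefSeq start. They were absent from these 3 windows, so no base is in capitals. They stood in 5 of 39 windows of the 34 members with an entry (12.8%) and in 13.8% of all 32851 windows. All 3 stretches were rich in G and C, at 83.7% for Wnt4, 72.8% for Fzd4 and 76.3% for Fzd5, against a median of 52.4% over all windows of 250 bases. A match or its absence describes these letters in this window only.

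Wnt4 was the ligand with the highest level per length in wildtype ovaries and the only one past the threshold. Wnt4 (ENSMUSG00000036856; GRCm38 chromosome 4, 137277489 to 137299726, plus strand) is made by granulosa cells of the adult mouse ovary. It stood at 86.8, 72.4 and 75.2 CPM in GalTKO replicates 1 to 3, against 147.1, 128.8 and 138.0 CPM in wildtype replicates 1 to 3. Every GalTKO library lay below every wildtype library. This was a fold of 0.567, or -0.82 ± 0.10 on the log2 scale (SE, 3 libraries a group; edgeR adjusted p = 0.00462). The call held under each of the 12 alternatives tried, with log2 fold changes between -0.90 and -0.77. Wnt4 lies 95.5 Mb from Galt on the same chromosome, and 24 genes within 1 Mb of it were tested. Of these 24 only C1qb, a complement gene of macrophages, passed the threshold (adjusted p = 0.0301), and it kept that call in 2 of the 6 fits that leave out a library, those without wildtype replicate 3 and without GalTKO replicate 2 (adjusted p up to 0.117 in the others).

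Markers of several cell types differed between the genotypes in the same direction as Wnt4. In bulk RNA, fewer cells of a type and less RNA per cell cannot be told apart. Of 8 luteal markers 7 had a negative log2 fold change and 1, Star, fell. Their summed level ran from 9301 to 14990 CPM in GalTKO libraries and from 15702 to 21993 CPM in wildtype libraries. All 4 endothelial markers were negative and 2 fell, Kdr and Pecam1, with sums of 331 to 372 CPM in GalTKO and 418 to 541 CPM in wildtype libraries. All 6 macrophage markers were negative and 3 fell, Csf1r, Mpeg1 and C1qb, with sums of 165 to 192 CPM in GalTKO and 254 to 311 CPM in wildtype libraries. The granulosa sums overlapped between the genotypes. Of 8 granulosa markers 4 had a positive and 4 a negative log2 fold change, and 1, Amh, rose. No theca, stroma, smooth muscle or oocyte marker passed. The part of these cell types in the fall of Wnt4 was not tested.

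No other ligand passed the threshold, although Wnt5a came near it. Wnt5a, a ligand that acts mostly without beta-catenin, had 90.3, 110.7 and 82.2 CPM in GalTKO and 123.9, 138.8 and 128.6 CPM in wildtype replicates 1 to 3. The groups did not overlap, and the log2 fold change was -0.47 ± 0.12 (edgeR adjusted p = 0.0919). Without GalTKO replicate 2 it was -0.60 and passed (edgeR adjusted p = 0.0135), and it also passed with DESeq2 and with no filter on low counts. Wnt11, a ligand of cell movement in the embryo, was rare, at 1.01, 1.38 and 0.677 CPM in GalTKO and 0.480, 0.592 and 0.563 CPM in wildtype libraries. Its log2 fold change of 0.91 ± 0.37 rested on 71 counts in GalTKO and 39 in wildtype libraries and did not pass (edgeR adjusted p = 0.26). Wnt2b lay between 23.1 and 25.5 CPM in GalTKO and between 21.3 and 24.2 CPM in wildtype libraries, and its ranges overlapped. Wnt5b, a close relative of Wnt5a, had a log2 fold change of 0.27 ± 0.20, Wnt9a one of -0.27 ± 0.24 and Wnt10a one of 0.43 ± 0.42, and none passed. The whole gene span of Wnt5b shares 2963 bases with that of Fbxl14 on the other strand, which had 7250 counts. Whether exons lie in the shared stretch was not examined. The sources used here state no strand setting for the counting, so reads of any shared exon cannot be told apart.

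Too few counts were found for 9 ligands: Wnt1, Wnt2, Wnt3, Wnt3a, Wnt7a, Wnt8a, Wnt8b, Wnt9b and Wnt16. They held between 1 and 49 counts over the 6 libraries together, of which Wnt2 had the most. Wnt3, Wnt8a and Wnt8b had no count in wildtype libraries and 2, 6 and 1 counts in GalTKO libraries, too few for a fold. Wnt7a, known from oviduct and uterine epithelium, had 7 counts in GalTKO and 22 in wildtype libraries. Wildtype replicates 1 to 3 had 8, 12 and 2 of these counts. GalTKO replicates 1 to 3 had 3, 2 and 2 Wnt7a counts. Ovgp1 stood at 0.80, 20.3 and 0.173 CPM in wildtype replicates 1 to 3, and at 0.155, 0.043 and 0.573 CPM in GalTKO replicates 1 to 3. A part of oviduct tissue in the Wnt7a counts was not tested.

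Among the receptors, Fzd6 rose while most other Frizzled genes had lower values in GalTKO ovaries. Fzd6 (ENSMUSG00000022297; GRCm38 chromosome 15, 39006034 to 39038188, plus strand) acts with Fzd3 in planar cell polarity and orients hair in mouse skin. It stood at 29.6, 27.0 and 32.4 CPM in GalTKO replicates 1 to 3, against 11.4, 12.6 and 15.7 CPM in wildtype replicates 1 to 3. The lowest GalTKO library lay above the highest wildtype library. This was a fold of 2.24, or 1.164 ± 0.14 on the log2 scale (SE, 3 libraries a group; edgeR adjusted p = 0.0054). The call held under all 12 alternatives, with log2 fold changes between 1.06 and 1.303. Fzd6 was one of the less abundant Frizzled genes, at 16.97 ± 0.947 TPM in GalTKO and 7.90 ± 1.40 TPM in wildtype ovaries (SD, n = 3; TPM is a level that also divides by exon length).

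Of 11 tested genes within 1 Mb of Fzd6, 1 passed besides it. Baalc, which starts upstream on the same strand and ends 53121 bases before Fzd6, had 127, 22 and 24 counts in GalTKO and 1, 4 and 2 counts in wildtype replicates 1 to 3. Its adjusted p was 0.0448, and it passed in 2 of the 6 fits that leave out a library, those without GalTKO replicate 1 and without GalTKO replicate 2 (adjusted p up to 0.178 in the others). Several marker lists had positive log2 fold changes beside Fzd6. All 4 theca and interstitial markers were positive with none called (median 0.52). They ran from 0.06 ± 0.11 for Ptch1 to 0.96 ± 0.45 for Insl3, with Cyp17a1 at 0.92 ± 1.20 and Aldh1a1 at 0.11 ± 0.21. Their sums overlapped, at 1705 to 2381 CPM in GalTKO and 1695 to 1934 CPM in wildtype libraries. Of 5 smooth muscle markers 4 were positive with none called, with sums of 1063 to 1704 CPM in GalTKO and 1123 to 1405 CPM in wildtype libraries. All 7 surface epithelium markers were positive (median 0.28) and 1, Krt8, rose, with overlapping sums of 108 to 181 CPM in GalTKO and 110 to 113 CPM in wildtype libraries. Of 5 fat markers, Plin1 rose and Adipoq, Lep, Retn and Cfd were at or near 0. Of 8 granulosa markers 4 were positive and 4 negative (median 0.10), and 1, Amh, rose (log2 fold change 0.76, edgeR adjusted p = 0.0214). Foxl2 went the other way, with all GalTKO libraries below all wildtype libraries, and did not pass (log2 fold change -0.27, edgeR adjusted p = 0.224). The part of these cells in the rise of Fzd6 was not tested.

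A negative log2 fold change was found for 8 of the 12 receptor genes, and 5 of them, Fzd2, Fzd3, Fzd4, Fzd5 and Lrp6, had all GalTKO libraries below all wildtype libraries, where 12% of all tested genes did so. None of the 5 passed the threshold. Fzd5, a receptor of eye and gut development, had 33.7, 40.8 and 34.0 CPM in GalTKO and 47.7, 48.2 and 47.9 CPM in wildtype replicates 1 to 3, with a log2 fold change of -0.41 ± 0.10 (edgeR adjusted p = 0.0859). The wildtype libraries were within 1.01-fold of each other, and the gap lay outside them. Without GalTKO replicate 2 the value was -0.50 and passed (edgeR adjusted p = 0.0212), as it did with DESeq2 and with no filter on low counts.

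Fzd4, the receptor of norrin in retinal vessels and needed for corpus luteum formation in mice, had 61.6, 76.4 and 69.1 CPM in GalTKO and 83.6, 91.5 and 142.3 CPM in wildtype replicates 1 to 3. Wildtype replicate 3 was highest, and it was also the library with the highest luteal and endothelial sums. The part of these cell types in the Fzd4 values was not tested. The log2 fold change was -0.62 ± 0.20 (edgeR adjusted p = 0.192), or -0.34 without wildtype replicate 3, and DESeq2 alone among the alternatives called it. Fzd2 had 42.1, 37.5 and 29.3 CPM in GalTKO and 50.02, 42.9 and 47.3 CPM in wildtype libraries (log2 fold change -0.36 ± 0.14, edgeR adjusted p = 0.235). Fzd3, the polarity partner of Fzd6, stood between 138.7 and 152.4 CPM in GalTKO and between 163.0 and 169.4 CPM in wildtype libraries, with a log2 fold change of -0.17 ± 0.08 (edgeR adjusted p = 0.297).

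The remaining receptors gave no call, and only Lrp6 among them separated the genotypes. Fzd1 ran from 70.0 to 112.5 CPM in GalTKO and from 75.0 to 143.6 CPM in wildtype libraries. The co-receptor Lrp5, known for its role in bone mass, had a log2 fold change of 0.07 ± 0.08, and Lrp6 one of -0.10 ± 0.08, with 277.1 to 296.1 CPM in GalTKO and 298.3 to 315.3 CPM in wildtype libraries. Fzd7 and Fzd8 stood at -0.25 ± 0.13 and -0.10 ± 0.16. Fzd9 and Fzd10 were the rarest, with 184 and 111 counts over all libraries.

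**Figure D2:**
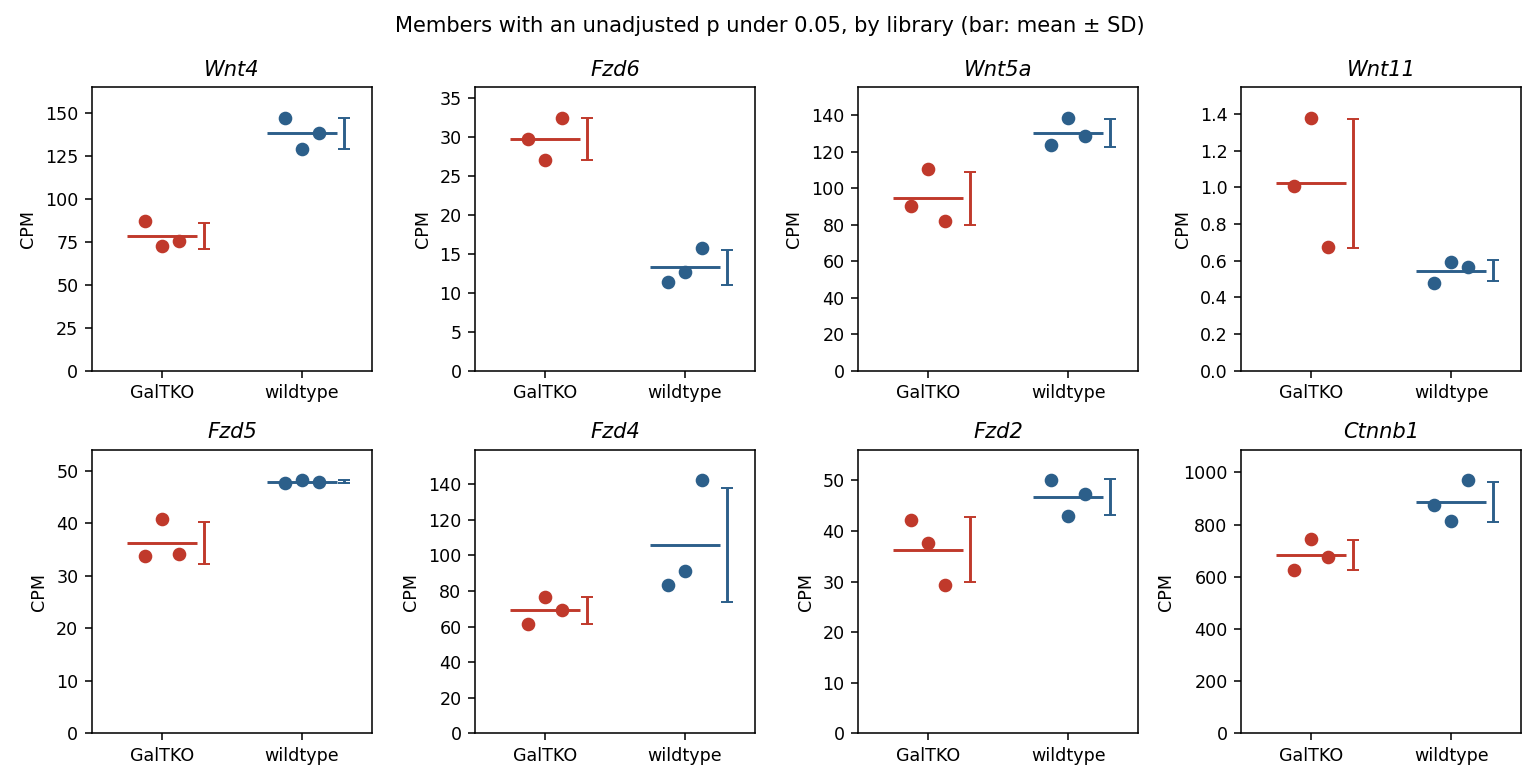
CPM of the 8 members with an unadjusted p under 0.05, with 1 point per library, a line at the mean and a bar of 1 SD, GalTKO at the left and wildtype at the right of each panel. GalTKO and wildtype points do not overlap in any panel, and the points stand higher in GalTKO for Fzd6 (27.0 to 32.4 against 11.4 to 15.7 CPM) and Wnt11.

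Beta-catenin itself had lower values in GalTKO ovaries without passing the threshold. Ctnnb1, which also links cadherins to the cytoskeleton, had 627.2, 745.3 and 677.4 CPM in GalTKO and 875.0, 814.3 and 969.8 CPM in wildtype replicates 1 to 3. The groups did not overlap, and the log2 fold change was -0.38 ± 0.11 (edgeR adjusted p = 0.138). It passed with DESeq2 (adjusted p = 0.0361) and with no filter on low counts, 2 of the 12 alternatives. The whole gene span of Ctnnb1 overlaps that of Ulk4 on the other strand over 5157 bases. Ulk4 had 770 counts and Ctnnb1 had 110027. As for Wnt5b, whether exons lie in the shared stretch was not examined.

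The Axin genes showed almost no difference. Axin1, the scaffold of the complex that breaks down beta-catenin, had 74.7, 68.5 and 72.8 CPM in GalTKO and 72.6, 70.8 and 69.8 CPM in wildtype libraries. Axin2, a feedback inhibitor whose transcript is widely used as a readout of beta-catenin activity, had 34.9, 50.3 and 33.8 CPM in GalTKO and 41.4, 42.2 and 33.2 CPM in wildtype libraries. Their log2 fold changes were 0.02 ± 0.08 and 0.03 ± 0.17, and the groups overlapped for both. The Axin2 value was -0.18 without GalTKO replicate 2, where that gene was highest.

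None of the 8 tested genes of the R-spondin arm passed or separated the genotypes. Lgr4, a broadly expressed R-spondin receptor, was the most abundant of them, with 191.9, 172.4 and 250.1 CPM in GalTKO and 232.7, 230.5 and 280.8 CPM in wildtype libraries (log2 fold change -0.28 ± 0.15, edgeR adjusted p = 0.397). Znrf3 had a log2 fold change of -0.10 ± 0.12 and Rnf43 one of 0.21 ± 0.21. Among the ligands of this arm, Rspo1 stood between 3.75 and 6.69 CPM in GalTKO and between 4.36 and 5.56 CPM in wildtype libraries. Rspo2 and Rspo3, at log2 fold changes of -0.07 ± 0.20 and -0.49 ± 0.36, also had overlapping groups. Rspo4, with 44 counts in GalTKO and 10 in wildtype libraries, was not tested, and 32 of its 44 GalTKO counts came from replicate 1.

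Sfrp4 was the most abundant member per length in both genotypes, and 1 GalTKO library was far below the rest. Sfrp4 (ENSMUSG00000021319; GRCm38 chromosome 13, 19623104 to 19632994, plus strand) encodes a secreted Frizzled-related protein known in rodent ovaries from granulosa cells after the ovulatory surge and from corpora lutea. GalTKO replicates 1, 2 and 3 had 1965.3, 175.8 and 1699.2 CPM. Wildtype replicates 1, 2 and 3 had 1548.6, 1534.5 and 1156.7 CPM. GalTKO replicates 1 and 3 lay above all wildtype libraries, while GalTKO replicate 2 lay below all of them. The highest GalTKO library was 11.2 times the lowest, against 1.34 times in wildtype.

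The mean level of Sfrp4 was not distinguishable between the genotypes. It was 1280 ± 966 CPM in GalTKO and 1413 ± 222 CPM in wildtype ovaries (SD, n = 3 each), and the log2 fold change was -0.14 ± 0.83 (SE; edgeR adjusted p = 0.953). Without GalTKO replicate 2 the sign turned, to 0.37 ± 0.15, still not past the threshold (edgeR adjusted p = 0.21). GalTKO replicate 2 held 22910143 counts in all, 4075 of them for Sfrp4, within the range of the other libraries in total. None of the 10 tested genes within 1 Mb of Sfrp4 was called.

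The same library was lowest for several other members. The GalTKO libraries spanned more than 3-fold for 7 tested members, Sfrp4, Wnt10b, Lgr5, Dkk2, Wnt7b, Wnt6 and Lgr6. That is 17.9% of the 39, against 6.14% of all tested genes. In wildtype libraries 1 member, Wnt7b, spanned more than 3-fold (2.56%, against 3.27%). GalTKO replicate 2 was lowest for 5 of the 7, as it was for 43.7% of all tested genes with so wide a span.

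Wnt10b, a ligand that restrains fat cell formation, had 47.0, 8.71 and 48.6 CPM in GalTKO and 42.5, 30.4 and 33.4 CPM in wildtype replicates 1 to 3. As with Sfrp4, the other two GalTKO libraries lay above all wildtype libraries. Its log2 fold change was -0.03 ± 0.62 with all libraries and 0.43 ± 0.14 without GalTKO replicate 2, not past the threshold in either case (edgeR adjusted p = 0.136 in the second). Lgr5, the R-spondin receptor that marks stem cells of the gut and cells of the mouse ovary surface, had 64.1, 26.2 and 89.1 CPM in GalTKO and 75.3, 60.7 and 64.3 CPM in wildtype libraries. Dkk2, an antagonist that binds Lrp6, was rare, with 72, 19 and 25 counts in GalTKO replicates 1 to 3. These were 2.79, 0.820 and 1.301 CPM, against 1.95 to 2.34 CPM in wildtype libraries. It was thus lowest in GalTKO replicate 2, by few counts, and GalTKO replicate 3 also lay below all wildtype libraries.

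Wnt6 went the other way in that library. It had 24.3, 53.6 and 15.8 CPM in GalTKO and 24.7, 25.2 and 26.03 CPM in wildtype replicates 1 to 3, so that the GalTKO libraries lay on both sides of a narrow wildtype range. Without GalTKO replicate 2 its log2 fold change was -0.33, against 0.31 ± 0.43 with it. Lgr6, a receptor that marks stem cells of skin, was highest in another library, with 122.0, 35.6 and 32.3 CPM in GalTKO and 63.9, 44.9 and 44.7 CPM in wildtype libraries. Without GalTKO replicate 1 its log2 fold change was -0.59, against 0.31 ± 0.57 with all libraries.

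Wnt7b varied most of all tested members in both genotypes. It had 42.1, 0.906 and 3.28 CPM in GalTKO and 16.5, 8.42 and 2.04 CPM in wildtype replicates 1 to 3. The GalTKO span was 46.5-fold and the wildtype span 8.11-fold, and the log2 fold change of 0.79 ± 1.47 had an error larger than itself. Without GalTKO replicate 1 it was -2.13.

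Several marker sums of GalTKO replicate 2 stood at the edge of the 6 libraries in both directions. Its sums were the highest of all libraries over the 4 theca and interstitial (2381 CPM), 6 stroma (3214 CPM), 5 smooth muscle (1704 CPM) and 7 surface epithelium markers (181 CPM). Its luteal sum, 9301 CPM, was the lowest, close to the 9543 CPM of GalTKO replicate 1, which had the highest Sfrp4 level. Single markers did not all follow their list. Among the theca and interstitial markers, Cyp17a1, the androgen enzyme of theca cells, had 399.7, 7.29 and 296.0 CPM in GalTKO and 119.6, 132.1 and 119.2 CPM in wildtype replicates 1 to 3. Aldh1a1, a retinaldehyde dehydrogenase gene of the same list, had 1356, 2028 and 1115 CPM in GalTKO and 1226, 1488 and 1451 CPM in wildtype libraries. GalTKO replicate 2 was thus the lowest library for Cyp17a1 and the highest for Aldh1a1. Among the luteal markers, Ptgfr, a prostaglandin receptor gene, had 650.8, 204.3 and 935.9 CPM in GalTKO and 604.9, 573.6 and 645.5 CPM in wildtype libraries. Like Ptgfr, Lhcgr (236.0 CPM), Star (617.0 CPM), Cyp11a1 (2862 CPM) and Scarb1 (495.4 CPM) were lowest of all libraries in GalTKO replicate 2. Star was close to its 626.2 CPM in GalTKO replicate 1. Akr1c18 was lowest of the GalTKO libraries there, at 265.3 CPM, with 183.8 CPM in wildtype replicate 3. Hsd3b1, a steroidogenic enzyme, had 2513, 4010 and 4398 CPM in GalTKO and 4686, 5037 and 6830 CPM in wildtype libraries. Hsd3b1 and Prlr were lowest in GalTKO replicate 1. The part of these cell types in the spans was not tested.

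**Figure D3:**
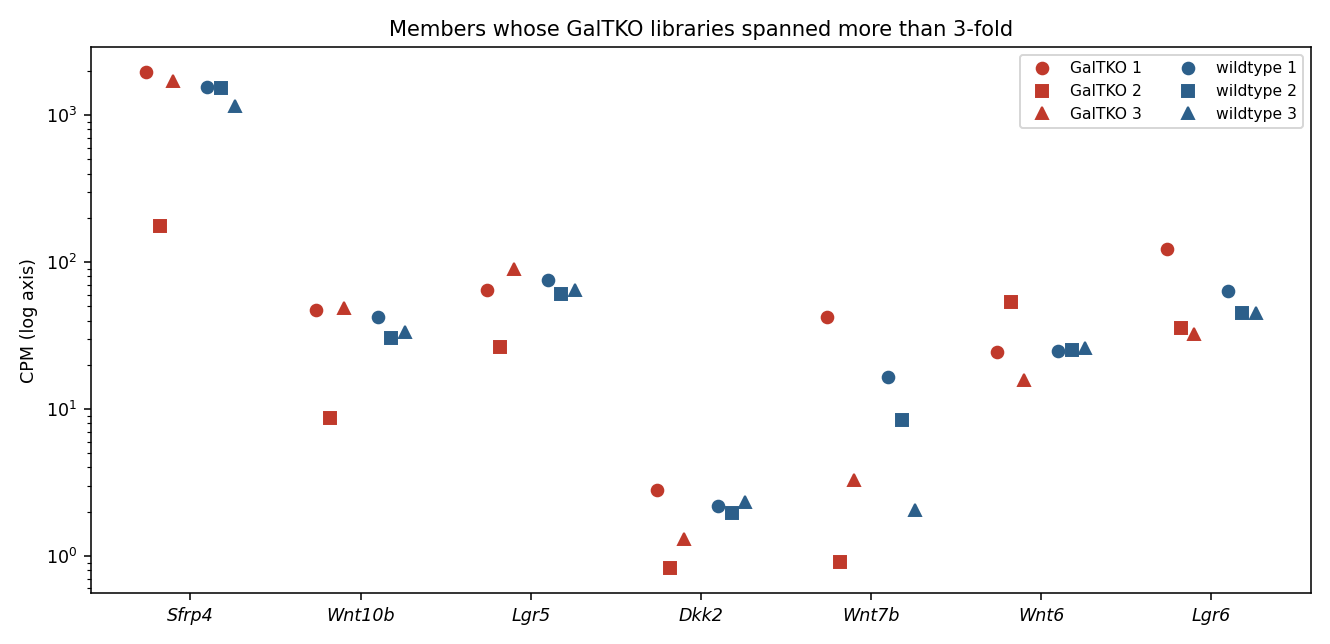
CPM on a log axis of the 7 members whose GalTKO libraries spanned more than 3-fold, with a symbol for each replicate number, GalTKO in red at the left and wildtype in blue at the right of each gene. GalTKO replicate 2 is the lowest GalTKO point for Sfrp4, Wnt10b, Lgr5, Dkk2 and Wnt7b and the highest for Wnt6.

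The other secreted antagonists gave no call. Sfrp1, the second most abundant of them, had 121.5, 139.4 and 115.2 CPM in GalTKO and 115.3, 116.0 and 104.1 CPM in wildtype libraries (log2 fold change 0.16 ± 0.10, edgeR adjusted p = 0.438). Dkk3, a divergent member of its family, had 73.1, 73.3 and 60.2 CPM in GalTKO and 85.2, 82.9 and 62.4 CPM in wildtype libraries (-0.16 ± 0.14). Sfrp2 and Frzb stood at -0.01 ± 0.23 and 0.02 ± 0.35, and both values moved with single libraries. Sfrp2 was at -0.33 without GalTKO replicate 2 (edgeR adjusted p = 0.218) and at 0.17 without GalTKO replicate 3. Frzb was at -0.45 without GalTKO replicate 1 (edgeR adjusted p = 0.477) and at 0.32 without GalTKO replicate 2. Dkk1, Dkk4, Sfrp5 and Wif1 held between 6 and 9 counts over all libraries and were not tested, and all 8 counts of Dkk1 came from GalTKO replicate 1.

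Levels per length put a few members far above the rest. Sfrp4 averaged 836 ± 632 TPM in GalTKO and 969 ± 146 TPM in wildtype ovaries, and Ctnnb1 363 ± 38.2 and 490 ± 55.2 TPM (SD, n = 3 each). In GalTKO ovaries the difference between these genes was within the spread of Sfrp4. Lgr4 followed at 83.1 to 112 TPM in GalTKO and 108 to 139 TPM in wildtype libraries, and Sfrp1 at 79.2 ± 10.5 and 73.3 ± 4.01 TPM. Wnt4 stood at 51.4 ± 5.69 TPM in GalTKO, where it was close to Axin1 at 51.8 ± 2.42 TPM, and at 94.5 ± 9.02 TPM in wildtype ovaries, where it was above Sfrp1. The next ligands were Wnt5a, at 33.4 ± 6.27 TPM in GalTKO and 47.8 ± 1.29 TPM in wildtype ovaries, and Wnt6, at 39.8 ± 26.3 and 33.1 ± 1.42 TPM. Among Frizzled genes, Fzd1 was highest, at 57.4 ± 16.6 TPM in GalTKO and 76.4 ± 24.2 TPM in wildtype ovaries, and Fzd10 lowest, at 0.678 ± 0.120 and 0.698 ± 0.123 TPM.

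**Figure D4:**
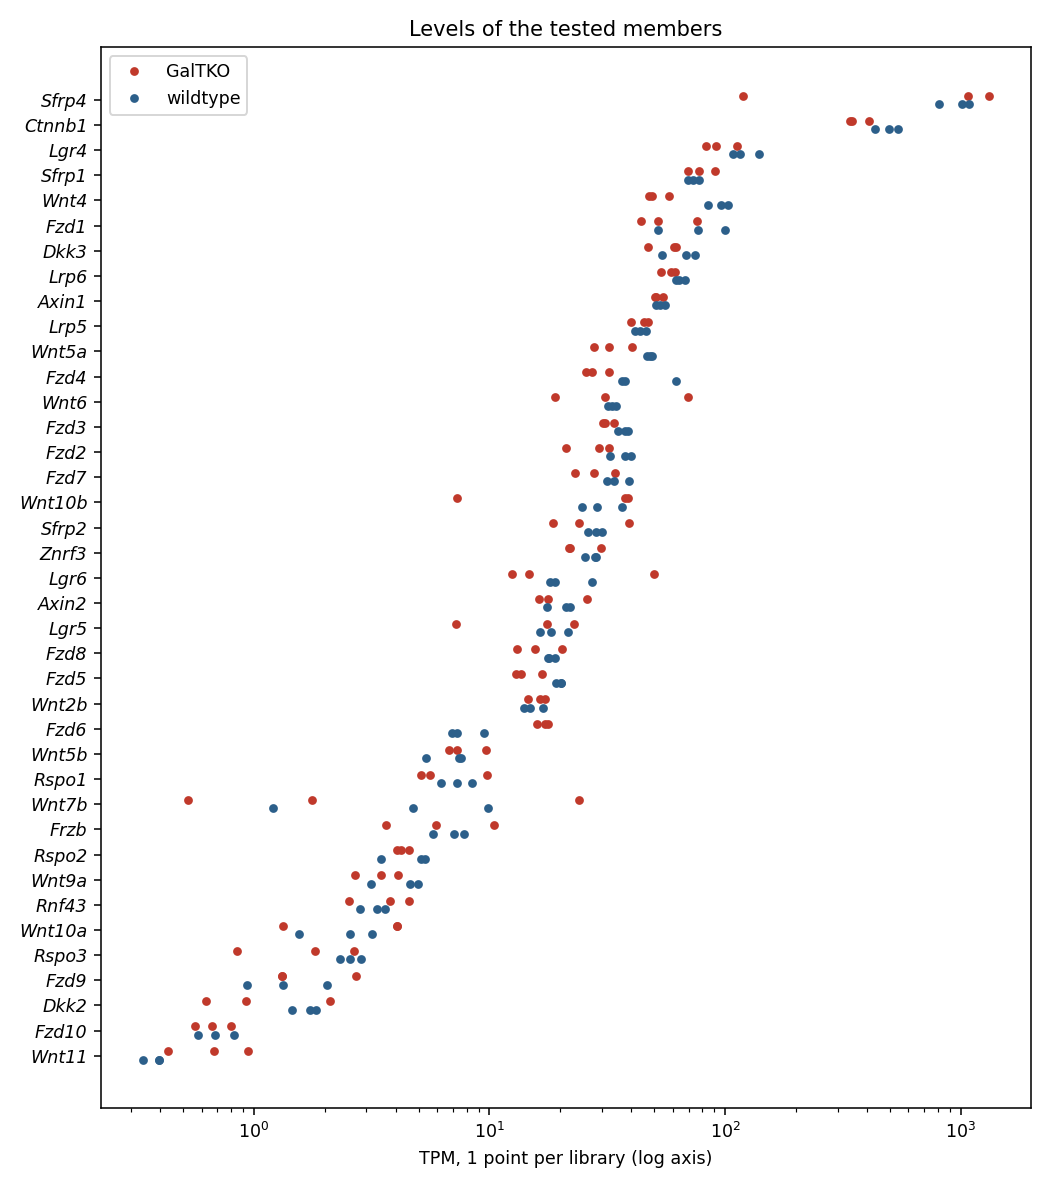
TPM of the 39 tested members on a log axis, with 1 point per library, GalTKO in red above wildtype in blue for each gene, ordered by the mean over the 6 libraries. Sfrp4 and Ctnnb1 stand above all other members, except that the lowest GalTKO point of Sfrp4 lies within the range of Lgr4. The genotypes separate for the called members Wnt4 and Fzd6, and also for members that were not called, such as Wnt5a and Lrp6.

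Beyond the set, 54 other genes of Wnt signalling were examined, of which 49 were tested. Of these 49, 1 was higher and 1 was lower, against 2.55% of all tested genes called (1.13% higher and 1.43% lower). Both calls were among 9 transcripts often used as readouts of beta-catenin. Myc, a growth regulator, had 124.9, 135.1 and 126.8 CPM in GalTKO and 99.4, 100.6 and 89.0 CPM in wildtype libraries (log2 fold change 0.42 ± 0.08, edgeR adjusted p = 0.0424). Ccnd1, which encodes cyclin D1, had 22.8, 25.3 and 18.1 CPM in GalTKO and 41.2, 32.8 and 42.7 CPM in wildtype libraries (-0.82 ± 0.15, edgeR adjusted p = 0.0328). The groups separated for both, in opposite directions. Of the 6 fits that leave out a library, the one without GalTKO replicate 2 kept both calls and the other 5 kept neither (highest adjusted p 0.149 for Myc and 0.129 for Ccnd1). With the replicate number as a block, neither passed.

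Tcf7 and Celsr2, of the same list, came near the threshold. The factor gene Tcf7, a partner of beta-catenin, had a log2 fold change of 0.46 ± 0.10 (edgeR adjusted p = 0.0549) and passed without GalTKO replicate 2 (0.51, adjusted p = 0.0342). Celsr2, a planar polarity cadherin, stood at 0.50 ± 0.12 (edgeR adjusted p = 0.0806). None of the 12 tested genes of Wnt secretion and the cell surface, 20 intracellular genes or 8 planar polarity genes passed, against 1, 4 and 1 of them with an unadjusted p under 0.05. An unadjusted p under 0.05 was found for 9 of the 49 tested genes of the list and for 17.1% of all tested genes. In DESeq2, 3 of the 54 genes were higher (Myc, Tcf7 and Celsr2) and 1 lower (Ccnd1), with 5.44% of all genes called. Of the 9 readout transcripts, 4 had positive and 5 negative log2 fold changes, and 3 had an unadjusted p under 0.05. The third beside Myc and Ccnd1 was Fst, which encodes the activin-binding protein follistatin, with 182.1, 213.1 and 177.3 CPM in GalTKO and 276.5, 230.3 and 238.0 CPM in wildtype libraries. The groups of Fst did not overlap, and its log2 fold change of -0.38 ± 0.11 did not pass (edgeR adjusted p = 0.126), although it passed without GalTKO replicate 2 and with no filter on low counts. The other 6 readouts, Nkd1, Nkd2, Sp5, Apcdd1, Tnfrsf19 and Cd44, lay between -0.14 and 0.24 with overlapping groups.

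The number of members called was larger under DESeq2 and without GalTKO replicate 2. DESeq2 called 6 members, adding Wnt5a, Fzd4, Fzd5 and Ctnnb1 on the lower side, with 5.44% of all genes called. Without GalTKO replicate 2, edgeR called 4 members, adding Wnt5a and Fzd5, with 4.26% of all genes called. With no filter on low counts it called 5, adding Wnt5a, Fzd5 and Ctnnb1, with 2.83% of all genes called.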

How the data were processed

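RNA from ovaries was depleted of ribosomal RNA and made into stranded total RNA libraries, per the labels' protocols. The authors deposited a table of raw counts, in whole numbers, with 1 row for each Ensembl gene. Per the submitters' processing notes, cutadapt 1.16, STAR 2.7.6a, featureCounts 1.6.3, DESeq2 1.30.1 and build GRCm38 were used, and the sources used here state neither their roles, nor the strand setting, nor the treatment of reads that match several places. Unspliced RNA is also sequenced in such libraries.

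Names and coordinates came from GENCODE M21 (55227 of 55487 identifiers matched). Counts were tested in R 4.3.3 with edgeR 4.0.16: filterByExpr (minimum count 10, minimum total 15), TMM scaling, a robust quasi-likelihood fit with genotype as the only term to all 6 libraries, and two-sided p-values adjusted over 16957 genes. The SE is the log2 fold change divided by the square root of F. CPM uses the scaled library sizes of tested genes, and TPM the union of exon lengths. The fit was tested on simulated data. Libraries of a genotype differed by a chi-square per degree of freedom of at least 13.3, so each counted as 1 replicate.

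The members and lists were chosen with earlier results of these data known. Named were Sfrp4, every called member, and in each role up to 4 members with the smallest p and up to 3 with the highest level; other members, neighbours, single markers and the readouts besides Myc and Ccnd1 were named after their values were seen. Alternatives were median-of-ratios scaling, DESeq2 1.42.0, no filter, a filter of 1 CPM in 3 libraries, protein-coding genes only, the replicate number as a block, and each library left out. Figures were drawn with matplotlib 3.10.9.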

Additional observations from a re-analysis of the deposited data

How the results depend on the processing

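Wnt4 and Fzd6 kept their direction and stayed past the threshold under all 12 alternatives, and 19 of the 24 members named by the rule kept their direction. The number of members called was 2 with all libraries. It was 6 with DESeq2, 5 with no filter on low counts and between 2 and 4 with 1 library left out. The number over all genes was 433. It became 1026 with DESeq2, 877 with no filter, 260 among protein-coding genes alone and between 165 and 742 with a library left out, highest without GalTKO replicate 2 and over 1.5 times lower without GalTKO replicate 1 or any wildtype replicate. Of the other Wnt pathway genes 2 were called with all libraries, against 4 with DESeq2, 4 with no filter and between 0 and 5 with a library left out. The median of the members ran from -0.203 to -0.025 with a library left out, lowest without GalTKO replicate 1. The sign of the log2 fold change turned under at least 1 alternative for 15 of the 39 tested members, 5 of them named by the rule. Of these 5, signs turned without GalTKO replicate 2 for Sfrp4 (from -0.59 to 0.37 over the libraries left out), Wnt6 (-0.33 to 0.62) and Axin2 (-0.18 to 0.13). They turned without GalTKO replicate 1 for Lgr6 (-0.59 to 0.62) and Axin1 (-0.0099 to 0.053), and without wildtype replicate 3 for Axin2 (-0.08). The other 10 were Frzb, Fzd8, Fzd9, Fzd10, Lgr5, Rspo1, Rspo2, Sfrp2, Wnt7b and Wnt10b, with the widest turn for Wnt7b (-2.13 without GalTKO replicate 1). The causes were not tested. With the replicate number as a block, 321 genes were called, 2 members and 0 other Wnt pathway genes. The numbers were not taken to pair the libraries, since the labels state no pairing. Same-numbered libraries correlated by 0.093, -0.040 and 0.078 in their deviations from the group means, and differently numbered ones by -0.118 to 0.029. These values do not settle whether the libraries were paired. The 14 untested members had at most 54 counts, too few for a test.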
